A study of Papio anubis with 40 samples.

Results

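The fragments described here come from the 5′ side of the glutamate tRNA that carries the CTC anticodon (Glu-CTC). They were every fragment in a deposited table of serum tRNA fragments that begins with the same 20 bases and is 25 to 36 nucleotides (nt) long, which gave 303 of 58587 fragments. Together they held 7164537 of 130892201 counts, or 5.47%. Serum was drawn from 8 olive baboons (Papio anubis), a monkey used as a model of endometriosis, and 5 draws of each animal gave 40 libraries. The groups were the draws at months 3, 6, 9 and 15 after menstrual tissue had been placed in the peritoneal cavity by laparoscopy, and the draw before that procedure (month 0), with 8 animals at each. Every animal was inoculated, every sample came from 0.5 mL of serum and every label reads as no treatment. Age was not among the labels. No libraries of animals without inoculation were analysed here, so time and inoculation cannot be told apart.

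A tRNA folds into a cloverleaf whose lower arm, the anticodon arm, is a short paired stem closed by a loop that carries the anticodon. RNases such as angiogenin cut tRNAs in and near that loop, and the pieces that contain the original 5′ end accumulate in cells under stress and circulate in mammalian serum, where those of glycine, glutamate, valine and lysine tRNAs are among the common ones. In bulk serum, fewer source cells and less RNA released per cell cannot be told apart.

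Library totals ran from 198840 counts (PA8001 at month 0) to 6245450 counts (PA8914 at month 9), and the second lowest was 889540 counts (PA8835 at month 9). Levels are given as CPM, the count relative to the library total, after scaling for library composition. A count of 0 in the smallest library allows up to 7.82 CPM, from 3 counts, a limit that covers counting error only. Earlier results of these data had set the month 15 libraries of PA8001 and PA8003 apart, so values without them are given where a result rests on them.

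A longer deposited molecule that begins with the same bases spans the whole tRNA and places every fragment end. It was a fragment of 75 nt that ends in CCA and was counted 150 times. It was the most counted of 15 fragments over 70 nt with this start, which held 170 counts together. Its anticodon lies at bases 34 to 36 counted from the 5′ end. In this molecule bases 27 to 31 can pair with bases 39 to 43, which makes a stem of 5 pairs around a loop of bases 32 to 38. The fragment of 36 nt thus carries the whole anticodon, and those of 32 and 33 nt stop before it. The RefSeq annotation of the olive baboon (Panubis1.0) lists 3 genes named TRNAE-CUC and 11 named TRNAE-UUC among 387 tRNA genes, and the table does not say which gene a fragment came from.

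The ends of the fragments lay mostly at the foot of the anticodon loop. Of all member counts, 43.6% ended at base 31, the last base of the 5′ strand of the stem, and 31.1% ended at base 32, the first base of the loop. Ends at base 30 held 15.6% and ends at base 29 held 8.06%. These 4 lengths together took 98.4% of the counts. Lengths of 33 to 36 nt, which reach further into the loop or the anticodon, held 1.23%, and the lengths of 25 to 28 nt held from 0.0024% to 0.271% each. Fragments whose last base lay in the loop, those of 32 to 36 nt, were therefore 32.3% of the counts. Nearly all of the remainder ended at a base of the stem, most of it at the last one, next to the loop.

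Very little else of this tRNA began with the same bases. Fragments under 25 nt with this start were 10 and held 567 counts, and those over 36 nt were 58 and held 591 counts.

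Almost all member counts lay in 1 nested series. The 12 fragments with the main sequence, 1 at each length, held 97.1% of member counts. The other members each differed from it at 1 base: 259 at an inner base, with 2.65% of counts, and 32 at the last base only, with 0.273%. Such a variant is written with the main base, its position from the 5′ end and the base found, so that C34G has G at base 34. The first 20 bases are shared by rule, so a fragment that differs there is not a member. The shares above and the variant shares below thus cover bases 21 to 36 only. Of the 303 members, 59 had counts in all 40 libraries and 29 were counted once in the whole study. The test across libraries kept 79 members, which held 99.9% of member counts, and left out 224 with totals of at most 223 counts.

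Glu-CTC 5′ fragments took between 2.68% and 10.2% of a library. The mean share was 5.69 ± 2.06% at month 0, 5.12 ± 2.17% at month 3, 5.35 ± 1.82% at month 6, 4.52 ± 1.35% at month 9 and 5.79 ± 2.41% at month 15 (SD, n = 8 each). Between month 15 and month 0 the share differed by 0.097 ± 1.41 percentage points (SD over 8 animals) and was higher in 3 of 8 animals, a difference smaller than its spread. The lengths within the family differed more between draws.

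**Figure D1:**
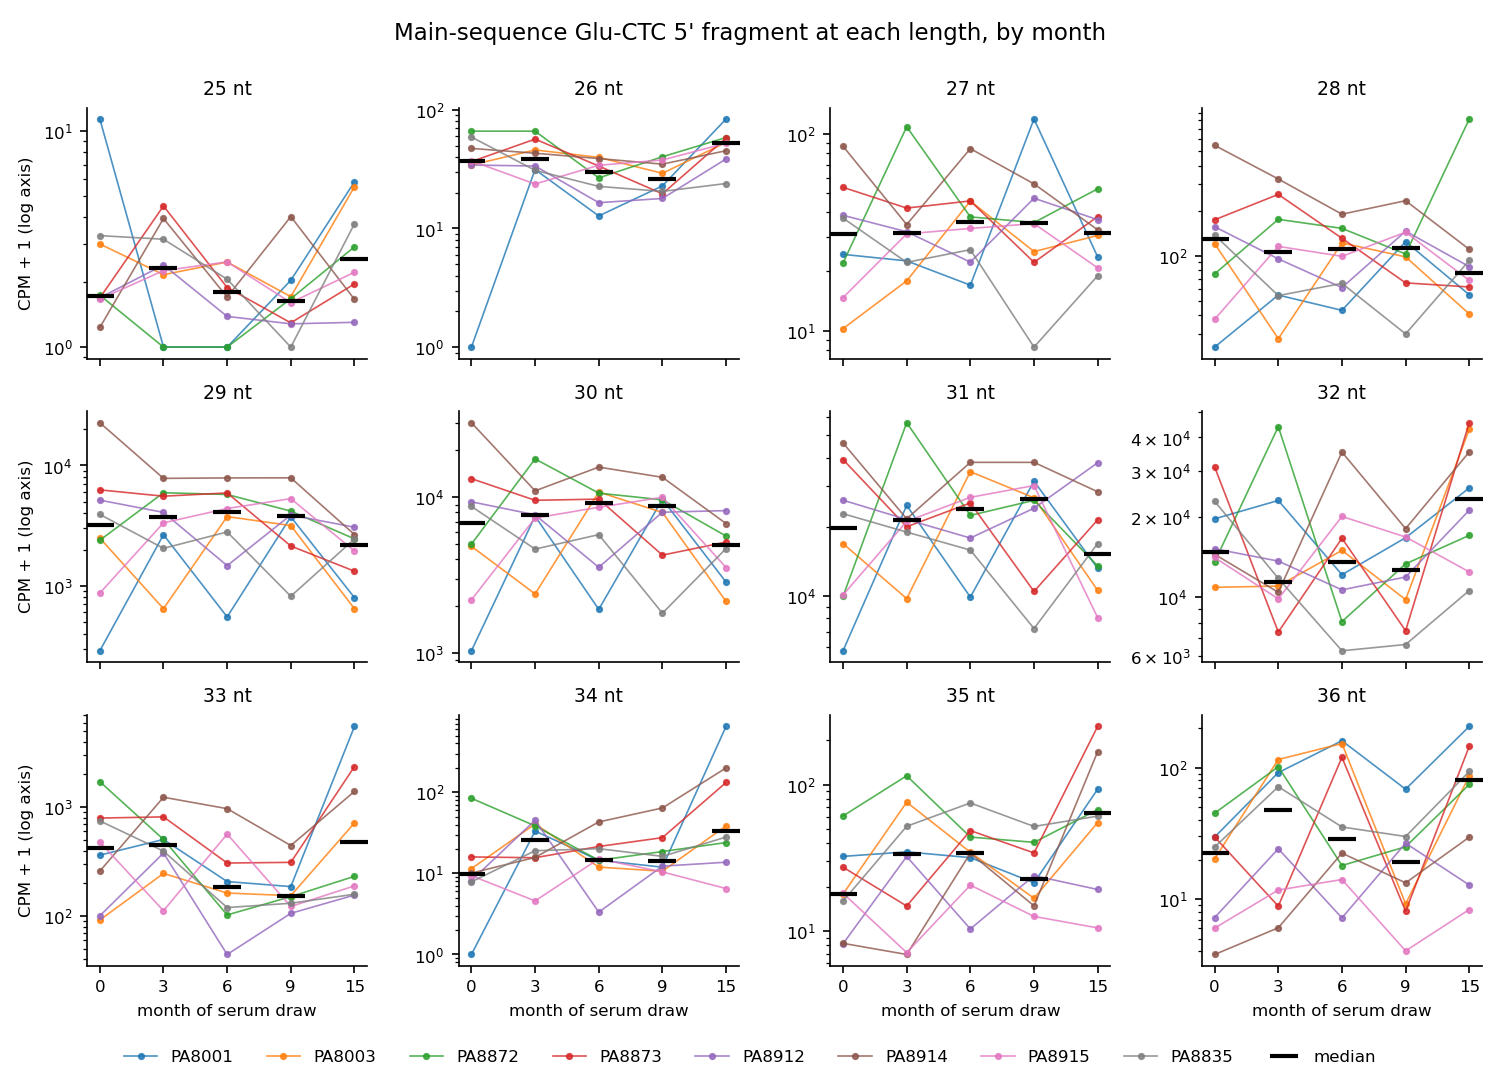
Level of the main-sequence Glu-CTC fragment at each length from 25 to 36 nt (CPM + 1, log axis) at each draw; each line is 1 of 8 animals and black bars are medians. The fragments of 31 and 32 nt lie at or above 5780 CPM in every library, and at 33 and 34 nt the month 15 value of PA8001 (5531 and 648 CPM) stands above those of the other animals.

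The fragment of 31 nt was the most counted member, with 3034889 counts. It had 5780, 19879 and 46410 CPM as lowest, median and highest at month 0, medians of 21350, 23945 and 26444 CPM at months 3, 6 and 9, and 8049, 15232 and 38044 CPM at month 15. Its ranges overlapped at all 5 draws. The change at month 15 against month 0 was -0.21 ± 0.374 (log2, SE), with an adjusted p of 0.758 by edgeR's quasi-likelihood test with Benjamini-Hochberg adjustment over all fragments tested.

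The fragment of 32 nt, 1 base longer, was next with 2154806 counts. At month 15 it had 10575, 23528 and 45484 CPM as lowest, median and highest, against 10872, 14844 and 30972 CPM at month 0. It was higher at month 15 in 6 of 8 animals, by a log2 change of 0.48 ± 0.362 (SE), which did not pass (edgeR adjusted p = 0.442). Summed over members of a length, 31 nt held the most counts in 28 libraries and 32 nt in 12. The length of 32 nt led in 4 of 8 libraries at month 0, in 1 at month 3, in 1 at month 6, in none at month 9 and in 6 at month 15.

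The fragments of 29 and 30 nt, which end inside the stem, had the reverse order of levels. At month 15 the 29 nt fragment had 643, 2194 and 3065 CPM as lowest, median and highest, against 286.7, 3204 and 22688 CPM at month 0. PA8914 held the month 0 value of 22688 CPM, and the next animal had 6265 CPM. The change was -1.06 ± 0.473 (log2, SE), with 5 of 8 animals lower and an edgeR adjusted p of 0.2, and without PA8914 it was -0.69 with an adjusted p of 0.554. Without the filter on low counts the 29 nt fragment did pass, at -1.25 with an edgeR adjusted p of 0.0041. The 30 nt fragment had 2148, 4930 and 8221 CPM at month 15, against 1035, 6881 and 30154 CPM at month 0, and its change of -0.70 ± 0.418 did not pass either (edgeR adjusted p = 0.328).

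**Figure D2:**
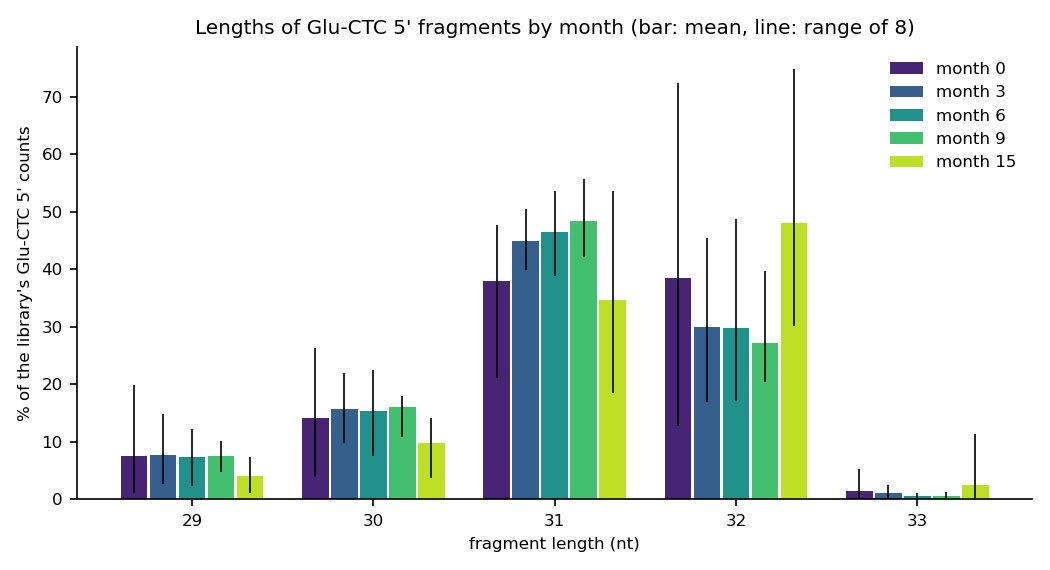
Share of each library's Glu-CTC 5′ counts at 29 to 33 nt, by month; bars are means of 8 libraries and lines run from the lowest to the highest. The mean share at 32 nt was highest at month 15 (48.0%) and lowest at month 9 (27.1%), and the shares at 29 and 30 nt were lowest at month 15.

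As shares of the family the same order appeared. The mean share at 32 nt was 38.4 ± 17.6% at month 0, 29.97 ± 9.77% at month 3, 29.8 ± 10.1% at month 6, 27.1 ± 5.83% at month 9 and 48.0 ± 14.8% at month 15 (SD, n = 8 each). That at 31 nt was 37.9 ± 8.89% at month 0, 48.4 ± 4.28% at month 9 and 34.6 ± 11.6% at month 15. The mean share at 29 nt was 7.58% at month 0, 7.63% at month 3, 7.32% at month 6, 7.52% at month 9 and 4.08 ± 2.49% at month 15. Shares of 1 total cannot move apart freely, so a higher share at 32 nt goes with lower shares elsewhere.

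Lengths of 32 to 36 nt, the part of the family that ends in the loop, made up 40.03 ± 18.4% of the counts at month 0, 31.4 ± 9.69% at month 3, 30.7 ± 10.4% at month 6, 27.8 ± 6.2% at month 9 and 51.1 ± 16.5% at month 15 (SD, n = 8 each). The 2 ends of the study overlapped widely, from 30.4% to 76.5% at month 15 and from 12.9% to 73.9% at month 0. The difference within animals was 11.0 ± 22.0 percentage points (SD, n = 8) between month 15 and month 0, which is smaller than its own spread. PA8003 had 76.5% at month 15 and 31.2% at month 0, PA8914 had 49.4% at month 15 and 12.9% at month 0, and PA8873 had 63.4% at month 15 and 35.2% at month 0. PA8912 had 30.4% at month 15 and 27.4% at month 0. In the other 4 animals the month 15 value was the lower one. PA8835 had 31.2% at month 15 and 40.03% at month 0, and PA8001 had 65.6% at month 15 and 73.9% at month 0. PA8915 had 48.3% at month 15 and 52.6% at month 0, and PA8872 had 43.8% at month 15 and 47.1% at month 0. Against months 3, 6 and 9 the difference was 19.7 ± 15.8, 20.4 ± 16.8 and 23.3 ± 19.99 points, and month 15 was higher in 7 of 8 animals each time. Month 15 thus stood further from the 3 middle draws than from month 0, in mean values; whether these differences differ from each other was not tested. No p is given for these sums, because the members were chosen with earlier results known.

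Depth differed beside these shares. The highest month 0 share, 73.9%, was that of PA8001, whose month 0 library was also the shallowest, with 11255 member counts, and the part of depth in it was not tested. Without that library the mean difference was 13.8 ± 22.2 points. Without PA8003 it was 6.14 ± 18.5 points, with 3 of 7 animals higher, and leaving out PA8001 and PA8003 at month 15 gave 8.54 ± 19.0 points, with 3 of 6 animals higher.

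**Figure D3:**
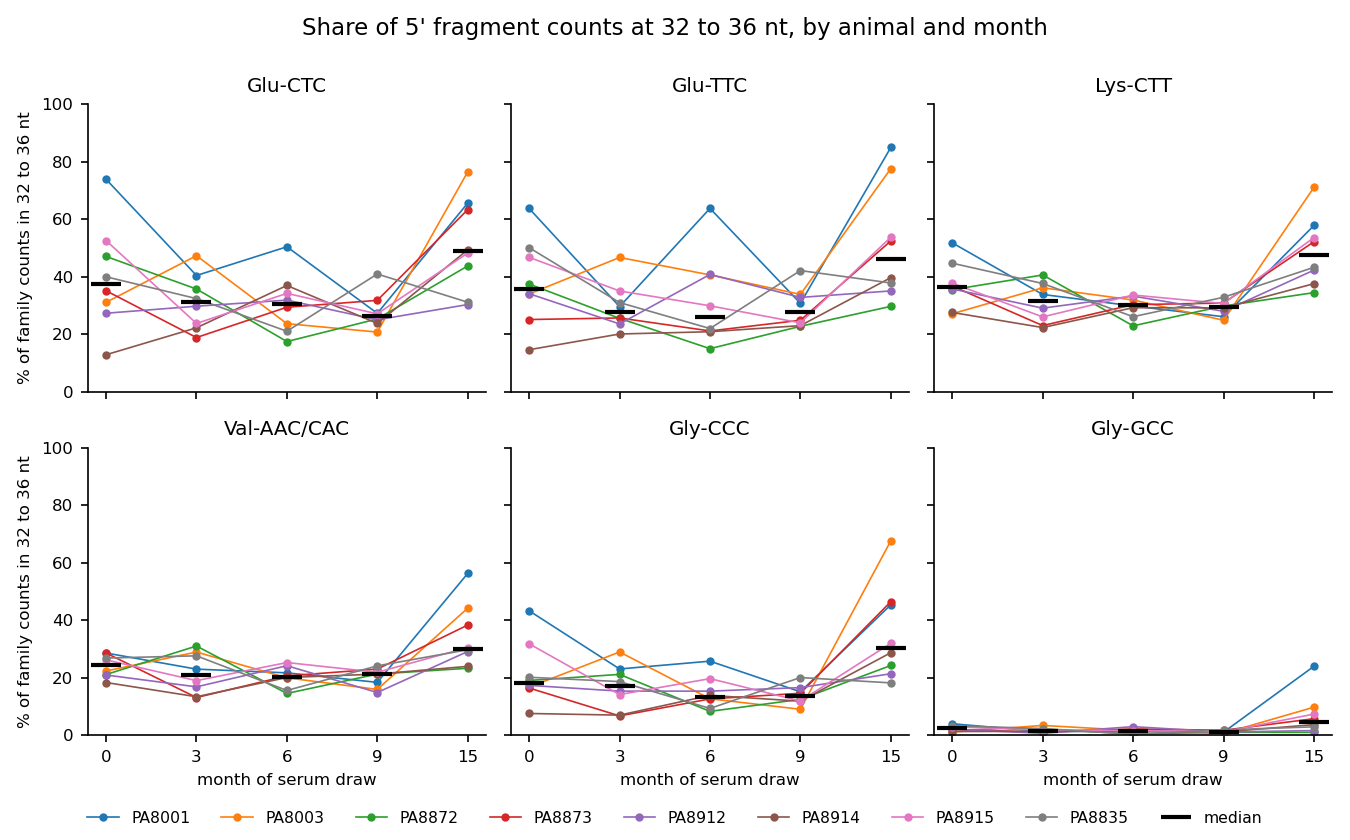
Percent of the counts of 6 families of 5′ fragments that fall at 32 to 36 nt, for each animal (lines) at each draw; black bars are medians of 8. Month 15 medians are the highest in each of the 6 panels, and the Glu-CTC lines fan out most at months 0 and 15.

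The same measure is given for other 5′ fragment families of these libraries, chosen by their own first bases in the same length range, as values side by side. In Glu-TTC the share at 32 to 36 nt was 51.4 ± 20.3% at month 15 and 38.3 ± 15.3% at month 0, higher in 6 of 8 animals. In Lys-CTT it was 49.1 ± 12.04% at month 15 and 37.2 ± 8.18% at month 0, also higher in 6 of 8. Val-AAC/CAC had 34.5 ± 11.3% at month 15 and 24.2 ± 3.92% at month 0 and was higher in 8 of 8 animals. Gly-CCC had 35.6 ± 16.6% at month 15 and 21.6 ± 11.0% at month 0, higher in 7 of 8. Lys-TTT had 32.8 ± 17.5% at month 15 and 31.4 ± 28.7% at month 0, higher in 4 of 8 as in Glu-CTC, and its month 0 values include 100% in PA8001 from 9 counts. Gly-GCC, whose ends lie mostly below 32 nt, had 7.09 ± 7.46% at month 15 and 2.56 ± 1.01% at month 0, higher in 5 of 8. Whether Glu-CTC differs from these families was not tested, and they share libraries, so they are not separate evidence.

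Changes of single fragments were tested across the whole table, with 2447 fragments tested and an adjusted p under 0.05 as the call. At months 3, 6 and 9 against month 0, edgeR's quasi-likelihood test called 0 of 79 members, and 0% of all fragments tested. DESeq2 and limma-voom also called none. Unadjusted edgeR p-values under 0.05 were held by 1 of 79 members at month 3, 3 at month 6 and 9 at month 9. Among all 2447 fragments tested, 73, 310 and 201 had such values at these months.

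The smallest p at month 3 and at month 6 belonged to the fragment of 36 nt, the one that includes the whole anticodon. It averaged 52.9 ± 46.0 CPM at month 3 and 65.2 ± 66.1 CPM at month 6, against 19.8 ± 14.4 CPM at month 0 (SD, n = 8 each). The log2 changes were 1.33 ± 0.507 (SE) with an edgeR adjusted p of 0.999 and 1.59 ± 0.517 with 0.303, so neither passed. The next smallest p-values at month 3 were those of the 29 nt fragment with G22A (log2 -0.70), and of the main fragment of 35 nt (0.81). At month 6 they were those of the 34 nt fragment with C34G (-2.13) and of the 31 nt fragment with G22T (0.75). At month 9 the smallest p-values lay at the loop lengths and the changes were downward: the main fragment of 33 nt (-1.55 ± 0.601), the 34 nt fragment with C34T (-1.98 ± 0.788) and the 32 nt fragment with G31T (-1.15 ± 0.470), each with an edgeR adjusted p of 0.582. None of these passed. At month 9, 26 of 30 tested members of 32 to 36 nt lay below month 0, with a median log2 change of -0.64. Of all 610 tested fragments of those lengths 409 lay below, with a median of -0.28.

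At month 15 against month 0, 2 members rose and none fell. They were 2.53% of the members tested, beside 2.21% of all fragments called upward and 0.163% called downward, so the share of members called lay near that of the whole table. Both were long fragments that reach into the anticodon: those of 35 nt and 36 nt, which had 4643 and 5165 counts over the study and so are rare beside the 31 nt fragment.

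The fragment of 35 nt ends 1 base short of the end of the anticodon. At month 15 it had 9.48, 63.1 and 249 CPM as lowest, median and highest, against 7.16, 17.0 and 60.0 CPM at month 0. The groups overlapped, and the fragment was higher at month 15 in 7 of 8 animals, the exception being PA8915 with 9.48 CPM at month 15 and 17.1 CPM at month 0. The log2 change was 1.97 ± 0.509 (SE), with an edgeR adjusted p of 0.037. The highest month 15 values were those of PA8873 (249 CPM) and PA8914 (167 CPM).

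The fragment of 36 nt holds all 3 anticodon bases. At month 15 it had 7.34, 79.6 and 205 CPM as lowest, median and highest, against 2.79, 21.6 and 44.1 CPM at month 0. It was higher in 8 of 8 animals, though the groups overlapped. The log2 change was 1.86 ± 0.513 (SE), with an edgeR adjusted p of 0.0443. Its medians between these draws were 46.9 CPM at month 3, 27.9 at month 6 and 18.2 at month 9, so its level did not climb steadily through the study.

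Both calls were close to the threshold. With library totals as the only scaling, the adjusted p of the 35 nt fragment was 0.11 and that of the 36 nt fragment was 0.0842, and with limma-voom they were 0.0831 and 0.0869. With the 2 months fitted alone they were 0.321 and 0.304, and with PA8001 and PA8003 dropped at month 15 they were 0.193 and 0.203, while the log2 changes stayed at 2.06 and 1.85. Leaving out PA8001, PA8003, PA8873, PA8912 or PA8914 ended both calls, with adjusted p-values from 0.0505 to 0.191. The call on 36 nt was also lost without PA8835 (adjusted p = 0.0649), without the month 0 library of PA8001 (0.0771), without the filter on low counts (0.0548) and without the replicate block (0.105). No setting turned either direction.

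The fragments of 33 and 34 nt show how much 1 animal can carry. At month 15 the 34 nt fragment had 5.50, 32.3 and 648 CPM as lowest, median and highest, against 0, 8.72 and 83.3 CPM at month 0. The value of 648 CPM was that of PA8001, whose month 0 library held no count of it, and the next highest at month 15 was 199 CPM in PA8914. Its log2 change of 2.37 ± 0.747 did not pass (edgeR adjusted p = 0.0824, higher in 6 of 8 animals), and without PA8001 it was 1.45 with an adjusted p of 0.18. It did pass with DESeq2 (log2 2.44, adjusted p = 0.0049), in edgeR without the filter on low counts (2.13, 0.0158), without the replicate block (2.91, 0.0247) and without PA8872 (3.18, 0.0307). The 33 nt fragment had 155, 473.7 and 5531 CPM at month 15, against 91.1, 419.9 and 1718 CPM at month 0, with medians close to each other. Its log2 change of 0.72 (edgeR adjusted p = 0.505) turned to -0.06 without PA8001.

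**Figure D4:**
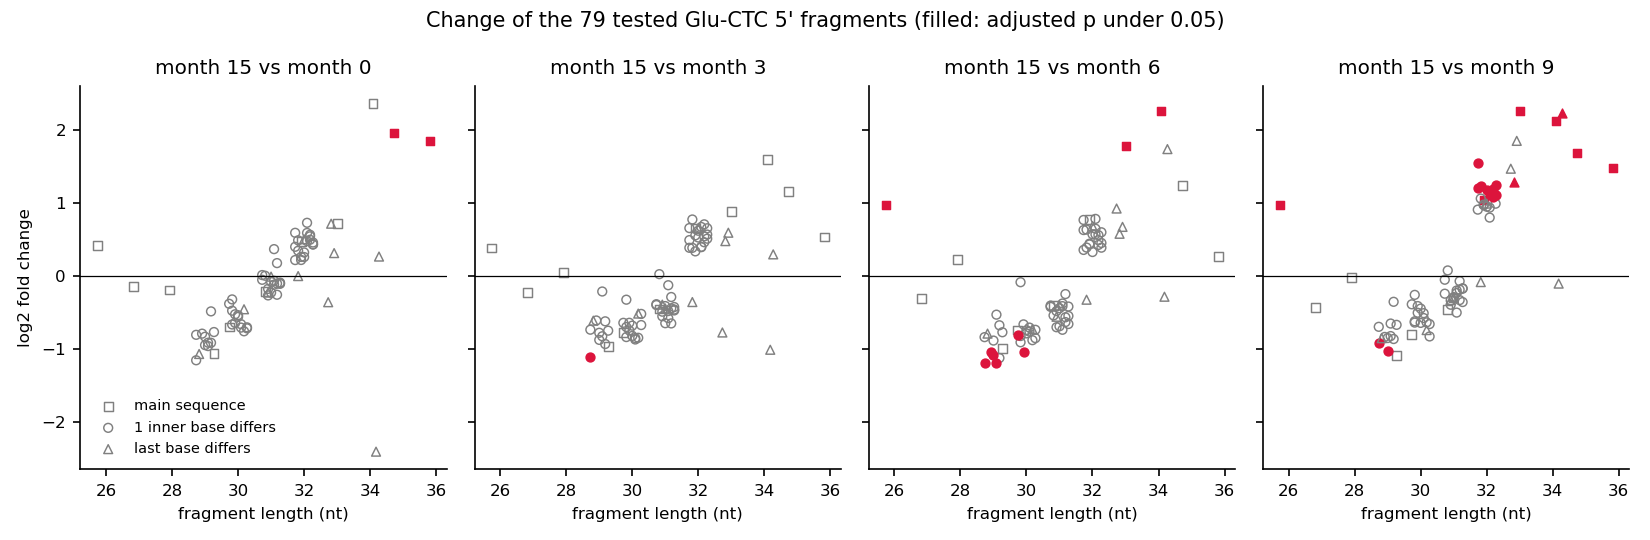
Log2 fold change of the 79 tested members in month 15 against months 0, 3, 6 and 9, by length; filled red marks have an adjusted p under 0.05. In each panel the marks at 29 and 30 nt lie below 0 and nearly all marks at 32 nt lie at or above it, with few called in any panel but that of month 9.

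Read by length, the direction of change at month 15 against month 0 split between 31 and 32 nt. All 12 tested members of 29 nt were lower, with a median log2 change of -0.91, and all 15 of 30 nt were lower, with a median of -0.64. At 31 nt 4 of 19 were higher, with a median of -0.10, and at 32 nt all 21 were higher, with a median of 0.46. None of these 67 single changes passed the test. The members of 25 to 31 nt had a median of -0.45, with 5 of 49 higher, beside -0.17 and 532 of 1469 for all tested fragments of those lengths. The members of 32 to 36 nt had a median of 0.47, with 28 of 30 higher, beside 0.51 and 495 of 610. Members of 1 length share most of their sequence and their libraries, so these counts are not counts of independent molecules, and nothing particular to Glu-CTC follows from them.

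The draws at months 3, 6 and 9 gave more calls as references, all 3 sharing the same month 15 libraries. Against month 3, 1 member fell and none rose. It was a 29 nt fragment with another base at position 21 (A21G). It averaged 6.74 ± 4.01 CPM at month 15 and 14.1 ± 6.88 CPM at month 3 (SD, n = 8 each), with a log2 change of -1.11 ± 0.351 (SE) and an edgeR adjusted p of 0.0436, lower in 7 of 8 animals. The members called were 1.27% downward and none upward, beside 3.92% and 7.19% of all fragments tested. Leaving out any 1 animal other than PA8835 ended this call, and without PA8835 there were 3, this one among them. How many of all fragments were called in those fits is not given here.

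Against month 6, 3 members rose and 6 fell. The members called upward were 3.8% and those downward 7.59%, beside 17.0% and 9.52% of all fragments tested. Those that rose were the main fragments of 26 nt (log2 0.97 ± 0.334), 33 nt (1.79 ± 0.629) and 34 nt (2.27 ± 0.708), with edgeR adjusted p-values of 0.0292, 0.0331 and 0.0181. Those that fell were all variants with 1 inner base changed, 4 of 29 nt and 2 of 30 nt. The A21G fragment of 29 nt had the smallest adjusted p among them (edgeR 0.0135). It averaged 6.74 ± 4.01 CPM at month 15 and 15.8 ± 8.61 CPM at month 6 and was lower in 8 of 8 animals. The others carried A24C, T25C or C27T at 29 nt and T25C or A21C at 30 nt, with log2 changes from -0.80 to -1.19. The main fragments of 29 and 30 nt, which hold far more counts, did not pass. Their log2 changes were -0.99 ± 0.469 and -0.74 ± 0.42 (SE), with edgeR adjusted p-values of 0.1065 and 0.179. Whether they differ from the changes of the called variants was not tested. Without PA8003, or with PA8001 and PA8003 dropped at month 15, none of the 9 was called, and the share of all fragments called in those fits is not given here.

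The 26 nt fragment is the exception among the short ones. It ends at the base just before the stem, and at month 15 it had 22.9, 51.8 and 82.8 CPM as lowest, median and highest, against 11.8, 29.2 and 38.8 CPM at month 6. It was higher at month 15 in 8 of 8 animals against month 6 and again against month 9. Against month 0, where the median was 35.9 CPM, its log2 change was 0.43 with an edgeR adjusted p of 0.458. The neighbours of 27 and 28 nt did not pass in any comparison.

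Against month 9, 18 members rose and 2 fell. The members called upward were 22.8% and those downward 2.53%, beside 18.2% and 12.4% of all fragments tested. At 32 to 36 nt, 17 of 30 tested members were called upward, beside 252 of 610 of all tested fragments of those lengths. Of the 18, 11 were of 32 nt, among them the main fragment, which averaged 26360 ± 13505 CPM at month 15 and 12596 ± 4421 CPM at month 9 (SD, n = 8 each; log2 1.04 ± 0.365, SE; edgeR adjusted p = 0.0307; higher in 7 of 8 animals). The other 7 were the main fragments of 26, 33, 34, 35 and 36 nt and a variant each of 33 and 34 nt with another last base (T33A and C34T). The largest changes were those of the main 33 nt fragment (2.27 ± 0.615, edgeR adjusted p = 0.012), of the 34 nt fragment with C34T (2.25 ± 0.764, 0.0266) and of the main 34 nt fragment (2.13 ± 0.698, 0.0229). The main 35 and 36 nt fragments followed at 1.69 ± 0.496 and 1.49 ± 0.518. Among variants of 32 nt the largest change was that of the G31T fragment, at 1.55 ± 0.465. The 10 variants of 32 nt called changed by 1.09 to 1.55, close to the main fragment of that length. They differ from it at 1 base each and share its libraries, so these calls are not independent. The 2 that fell were 29 nt variants, A24G (-1.03) and A21G (-0.92).

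For these calls against month 9, most animals shared the direction of change. The main 35 nt fragment was higher in 6 of 8 animals, and every other called member moved in its called direction in 7 or 8. Whether members passed the threshold depended on which animals were kept. Without PA8003 or without PA8873 3 of the 20 were called, and with PA8001 and PA8003 dropped at month 15 none was. The share of all fragments called in these fits is not given here, so nothing particular to Glu-CTC follows. Levels at month 9 were also mostly below month 0 at these lengths, in the members and in the whole table. Above month 0 were 4 of 30 tested members of 32 to 36 nt, beside 201 of 610 of all tested fragments. No member passed in that comparison. The median log2 change of those 30 members was 1.12 against month 9, 0.58 against month 6, 0.54 against month 3 and 0.47 against month 0, beside 0.99, 0.77, 0.68 and 0.51 over all tested fragments of 32 to 36 nt. With library totals as the only scaling the 4 medians were 1.17, 0.54, 0.63 and 0.38.

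**Figure D5:**
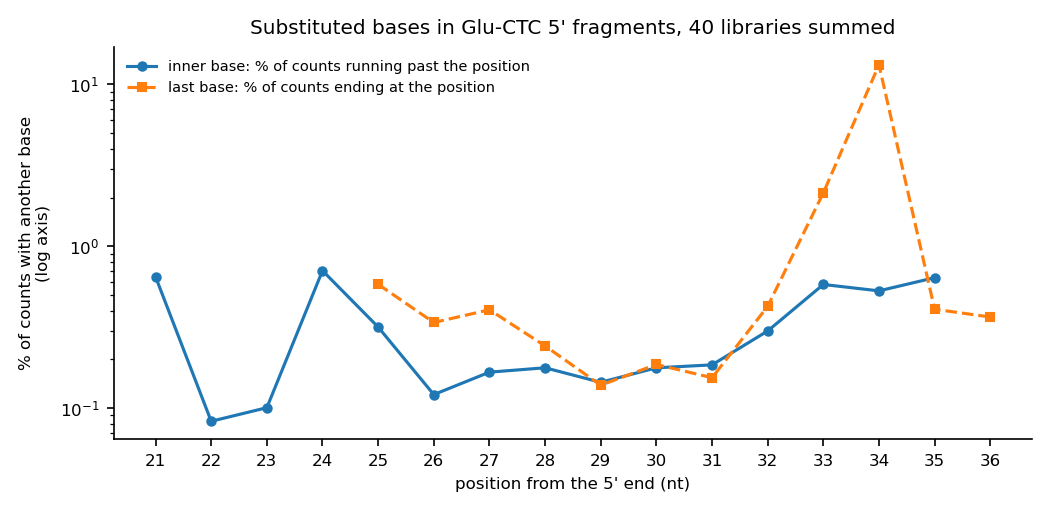
Percent of Glu-CTC 5′ counts with a base other than the main one at each position from 21 to 36, all 40 libraries summed (log axis); blue, as an inner base of longer fragments, and orange, as the last base. Inner bases differed in 0.647% of counts at position 21 and 0.706% at position 24, with shares near these at positions 33 to 35, which rest on under 100 counts each; last bases were highest at positions 33 and 34.

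From base 21 on, where members can differ, the variants with an inner base changed lay by counts mostly at a few positions before the anticodon stem. As an inner base, position 24 held another base in 0.706% of counts and position 21 in 0.647%, against 0.0828% and 0.1% at positions 22 and 23 between them. Shares about as high were found in the loop, at 0.58% for position 33, 0.53% for position 34 and 0.639% for position 35, but these rest on 92, 55 and 35 counts, beside 50583 at position 24 and 46392 at position 21. The substitutions with the most counts were A24G in 0.42% of the counts that read past its position, A21C in 0.346%, T25C in 0.311%, A21G in 0.299% and A24C in 0.285%. The most counted variant was the A24G fragment of 31 nt, with 13430 counts. It had medians of 86.7 CPM at month 0, 87.3 at month 3, 120 at month 6, 106 at month 9 and 78.2 at month 15, and it passed in no comparison. The next 5 variants by count were A21C, T25C, A21G and A24C at 31 nt and A24G at 32 nt, with 11077 down to 8594 counts. Substitutions of A21 and A24 to T were rare, at 0.0025% and 0.0015%.

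The share of the variants in the family differed little between months beside its spread between libraries. Members other than the main sequence made up 3.58 ± 1.85% of member counts at month 0, 3.22 ± 1.18% at month 3, 3.75 ± 1.64% at month 6, 3.39 ± 1.99% at month 9 and 3.34 ± 1.21% at month 15 (SD, n = 8 each). Single libraries ranged from 1.45% to 6.90%. The months overlapped throughout. The share of A24G ranged over the 40 libraries from 0.145% to 1.04%, with month means from 0.44% to 0.56%.

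In Glu-TTC fragments, which have the same bases at positions 21 to 27, position 24 held another base in 0.591% of counts and position 21 in 0.309%, and positions 22 and 23 in 0.075% and 0.0959%. The 2 glutamate families thus had the same order of these 4 positions. The values differed among other families. In Val-AAC/CAC, which has the same base at both positions, 0.84% of counts differed at position 21 and 21.5% at position 24. In Lys-CTT, which shares only the base at position 21, 0.436% differed there, 0.613% at position 23 and 0.0908% at position 24. With other bases at both, 0.527% differed at position 21 and 0.218% at position 24 in Gly-CCC, and 0.164% and 0.104% in Gly-GCC.

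Last bases gave a different picture. Of the fragments that end at base 34, 13.2% of counts had another base there, and at base 33 the share was 2.13%, while at every other length from 25 to 36 nt it was at most 0.581%. At 34 nt the base was G in 7.14% of counts (C34G) and T in 5.70% (C34T). The same position read as an inner base of fragments of 35 and 36 nt differed in 0.53% of counts. The C34G fragment had a total of 391 counts in 27 libraries, and averaged 1.07 ± 1.26 CPM at month 15 and 6.39 ± 8.94 CPM at month 0 (SD, n = 8 each; edgeR adjusted p = 0.19). The main fragment of the same length, with 135 ± 218 CPM at month 15 and 17.5 ± 26.9 CPM at month 0, did not pass either (edgeR adjusted p = 0.0824), its month 15 mean included the 648 CPM of PA8001, and whether the changes of these 2 fragments differ was not tested.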

How the data were processed

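Small-RNA libraries were made from serum RNA with adapters and unique molecular identifiers, per the labels' protocols. The authors deposited raw counts per fragment, with 1 column per library, and a second table of fragment sequences keyed by the same ID; per the submitters' processing notes R 4.5.0, edgeR and limma were used, with no role stated. Neither the aligner, the tRNA reference, the mismatches allowed nor any collapsing of identifiers is stated in the sources used. Libraries with much adapter dimer were size-selected, per the labels' protocols; which ones is not stated, and the part of that step in fragment lengths was not tested.

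Of 60201 lines, 1614 had no fragment ID. Each of these holds an unread base, and they carried 0.0805% of counts and were left out. CPM used full library totals and TMM factors. The test was edgeR 4.0.16 (R 4.3.3) quasi-likelihood with all 40 libraries, animal as block and month as factor, a minimum count of 10 (filterByExpr), and Benjamini-Hochberg adjustment over 2447 fragments with a threshold of 0.05. SE is the log2 change divided by the root of F. Replicates pair by the baboon number in the labels: libraries of 1 animal deviated together with a mean correlation of 0.187, against -0.0247 for different animals, with 53 of 80 same-animal pairs above 0.1, and the dispersion (BCV) was 0.5 with the block and 0.587 without. Alternatives used DESeq2 1.42.0, limma-voom 3.58.1, other scalings, no filter, no replicate block, the 2 months alone, and libraries left out. The code was tested on simulated data.

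Named were the main fragment at each length, up to 10 called members per direction and comparison whose sign agreed in 7 or 8 animals (otherwise the 3 smallest p-values), and the 6 most counted variants; the C34G pair was singled out after its values were seen. The members, the length split and the comparison families were chosen with earlier results of these data known. Sums over members get no p. The fragment sequences are not reported here.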

Additional observations from a re-analysis of the deposited data

Results flagged for a closer look

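Within each month, the highest or lowest of 8 libraries was compared with its nearest neighbour by Dixon's ratio (critical value 0.526) for the 12 main fragments and for family measures. Of 75 groups examined 20 had a library standing apart. The critical value gives about 1 in 20 for independent groups of normally distributed values. CPM values were not log-transformed here and the groups share libraries, so the 20 cannot be set against that rate. All 20 were the highest library.

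PA8914 at month 0 was high at 28 nt (545 CPM, next 172), 29 nt (22688 CPM, next 6265) and 30 nt (30154 CPM, next 13186). PA8914 was also highest at month 6 for 27 nt (83.5 CPM) and 34 nt (42.1 CPM), and at month 9 for 25 nt (3.03 CPM) and 34 nt (63.0 CPM).

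PA8872 at month 0 was high at 33 nt (1718 CPM), 34 nt (83.3 CPM) and 35 nt (60.0 CPM). At month 3 it was high at 27 nt (108 CPM), 31 nt (56838 CPM) and 32 nt (43946 CPM), and at month 15 at 28 nt, where it had 817 CPM and the next library 109 CPM.

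PA8001 at month 15 was high at 33 nt (5531 CPM, next 2365) and 34 nt (648 CPM, next 199). It was also highest at month 0 for 25 nt (10.4 CPM, from 4 counts), and at month 9 for 27 nt (119 CPM) and 36 nt (67.6 CPM). The mean length of all Glu-CTC 5′ counts at month 9 was highest in PA8835, at 31.2 nt.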

How the results depend on the processing

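Months 3 and 6 against month 0 gave no call under any setting tried, and month 9 gave 1 without the filter on low counts. For month 15 against month 0 (2 calls), library totals as scaling, limma-voom, the 2 months alone and the fit that drops PA8001 and PA8003 at month 15 each gave 0, the fit without the filter gave 4, DESeq2 5 and the fit without the month 0 library of PA8001 1; leaving out 1 animal gave 0 to 3. For month 15 against month 3 (1 call), RLE scaling, library totals, limma-voom, the 2 months alone and the fit without those month 15 libraries gave 0, DESeq2 gave 5, and leaving out 1 animal gave 0 to 3. For month 15 against month 6 (9 calls), library totals, limma-voom and the 2 months alone each gave 5, no filter and no replicate block each gave 4, DESeq2 18, the fit without those month 15 libraries 0, and leaving out 1 animal 0 to 13. For month 15 against month 9 (20 calls), library totals and the 2 months alone each gave 10, no filter 7, limma-voom 11, the fit without those month 15 libraries 0, and leaving out 1 animal 3 to 27. The fit without the replicate block kept 17 of these 20 among its 21. The share of all fragments called under each setting is not given here, so these counts show nothing particular to Glu-CTC.

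Direction across settings was followed for the tested main fragments at month 15 against month 0 and for the called members of every comparison. Among these, direction reversed only for weak changes of month 15 against month 0. Other single changes that did not pass were not followed in this way. The 27 nt fragment (-0.14) became 0.04 with the 2 months alone, 0.07 without PA8914 and 0.04 without PA8835, and ranged from -0.33 upward as animals were left out. The 28 nt fragment (-0.19) became 0.06 without the block, 0.13 without PA8914 and 0.03 without those month 15 libraries, and was -0.86 at the lowest, without PA8872. The 33 nt fragment (0.72) became -0.06 without PA8001 and 1.41 without PA8872, and it was -0.30 without those month 15 libraries. The cause was not tested. Members of few counts, above all at 25 nt and in the month 0 library of PA8001, are limited by depth.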
